A study of Homo sapiens with 18 samples.

Results

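Phosphorylation of RNA polymerase II (Pol II) at serine 2 of its C-terminal domain (Ser2P) was mapped by chromatin immunoprecipitation and sequencing (ChIP-seq) in cells treated with IAA and in Control cells. These are 4 of the 18 libraries of the series, chosen by antibody and treatment from their titles, with 2 libraries labelled IAA and 2 labelled Control. All 4 come from HCT116, a cell line from a human colon tumour, made to express INTS11 fused to an auxin-inducible degron (INTS11-AID). IAA is auxin, and adding it sends the fusion protein for degradation, so IAA libraries come from cells given the agent and Control libraries from the same tagged cells without it, by their titles. One protocol text covers every sample. It gives 14 h without serum and 500 µM IAA for 1 h, and it also lists EGF and interferon beta, which the titles of these 4 libraries do not name. Whether the tagged line is 1 clone, and whether libraries of a group came from separate cultures, is not given in the sources used here, so the p-values measure only the spread between these libraries, which may be technical.

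The C-terminal domain of the largest Pol II subunit is a long tail of repeats that is phosphorylated and dephosphorylated as the enzyme moves along a gene. Ser2P is placed by kinases such as CDK9, CDK12 and CDK13 and is a mark of polymerase in productive elongation, with its highest levels toward and beyond the polyadenylation site. Integrator binds Pol II near gene starts, where INTS11 cuts the nascent RNA and a bound phosphatase, PP2A, removes phosphates from the C-terminal domain. It also forms the ends of small nuclear RNAs.

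The deposited peak lists held 99001 and 88503 usable Ser2P peaks in IAA replicates 1 and 2, against 37013 and 15270 in Control replicates 1 and 2. Depth, estimated from the peaks' own statistics, was 9.34 and 10.5 fragments per kb in IAA, against 13.6 and 3.28 in Control. Control replicate 2 was therefore the shallow library and Control replicate 1 the deepest of the 4, and the depths of the groups overlapped (exact permutation p = 1). Ratios of group means are given with and without Control replicate 2. A protein-coding gene was tested when it spanned at least 2 kb, which left 18727 genes. A summit, the highest point of a peak, was called interior when it lay more than 1 kb inside both ends of such a gene. A peak at an end, or end peak, had its summit within 1 kb of either the start or the end of the gene. A gene was called gained with an interior Ser2P peak in both IAA libraries and in neither Control library. It was called lost with one in both Control libraries and in neither IAA library. With 2 libraries against 2, the two-sided exact permutation test cannot go below p = 0.333, so no difference between groups could pass a 0.05 threshold, and groups that do not overlap give 0.333. Of the colon epithelium markers checked against the labelled cell type, 6 of 14 tested genes had a Pol II peak at an end in all 4 numbered Pol II libraries, against 1 of 12 blood cell genes, 4 of 18 neuron genes and 0 of 11 fibroblast, muscle and liver genes. In bulk samples, fewer cells carrying a mark and less of it per cell cannot be told apart.

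The median promoter window of gained genes held more CpG than that of genes not gained, with values given after the sequences. The 150 bases before the annotated start are shown for 4 of the gained genes with the most summits, from RefSeq on GRCh38.p14, 5′ to 3′ on the gene's strand. Capitals mark the letters searched for on both strands. These were TATAAA as in a TATA box, the CCAAT box, GGGCGG as in a GC box bound by SP1 and CCGGAAG as bound by ETS factors, and copies may overlap. SLC2A1 is shown because it holds the only TATAAA among them, SHB and CMIP for their runs of GGGCGG or its reverse complement, and PARN for having a single copy.
SLC2A1 (chr1:42958869-42959018, minus strand): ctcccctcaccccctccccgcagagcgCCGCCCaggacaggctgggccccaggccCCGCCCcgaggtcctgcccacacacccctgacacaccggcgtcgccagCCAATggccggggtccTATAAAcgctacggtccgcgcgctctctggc
SHB (chr9:38069228-38069377, minus strand): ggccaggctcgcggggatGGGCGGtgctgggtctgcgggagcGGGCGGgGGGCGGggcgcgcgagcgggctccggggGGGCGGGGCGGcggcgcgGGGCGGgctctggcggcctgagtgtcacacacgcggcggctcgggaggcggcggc
PARN (chr16:14630261-14630410, minus strand): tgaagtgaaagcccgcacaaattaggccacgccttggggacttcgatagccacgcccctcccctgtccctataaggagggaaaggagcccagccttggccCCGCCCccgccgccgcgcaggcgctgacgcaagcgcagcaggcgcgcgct
CMIP (chr16:81444658-81444807, plus strand): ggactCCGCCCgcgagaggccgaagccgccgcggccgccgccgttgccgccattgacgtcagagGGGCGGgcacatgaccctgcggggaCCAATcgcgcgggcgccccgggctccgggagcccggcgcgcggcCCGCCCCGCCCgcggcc

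Within windows from 250 bases before to 50 bases after the start, GGGCGG was present in 68.8% of 2989 gained genes with a promoter in the table, against 50.5% of 6393 genes with no Control interior peak that were not gained. Over all 14897 tested genes with a promoter the share was 60.3%. TATAAA was in 5.79% of gained promoters and 12% of those not gained, with 8.41% over all. The median number of CpG was 26 in gained promoters and 17 in those not gained, and the median GC content 64.7% and 60%. The letters CCAAT were in 34.9% and 38.3%, and CCGGAAG in 17.5% and 11.4%. Promoters of the 2214 genes with an interior peak in all 4 libraries were close to gained ones in these measures, with GGGCGG in 67.8% and TATAAA in 5.69%. These are descriptions of letters in a window, with no test.

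Interior Ser2P peaks were found in far more genes with IAA. An interior peak was present in 10964 and 10533 genes in the IAA libraries, which is 58.5% and 56.2% of the genes tested. In the Control libraries it was present in 6675 and 2903 genes, or 35.6% and 15.5%. Both IAA libraries lay above both Control libraries, and the means stood 2.24-fold apart, or 1.61-fold without Control replicate 2 (exact permutation p = 0.333). Interior summits made up 55.1% and 53.6% of IAA peaks and 32.1% and 20.6% of Control peaks. Summits within 1 kb of a gene start or end made up 17.8% and 19.1% of IAA peaks, against 39.1% and 59% of Control peaks. The number of edge peaks was 17613 and 16892 in IAA and 14462 and 9004 in Control, a ratio of means of 1.47, or 1.19 without Control replicate 2. When each list was cut to its 15270 strongest peaks, the difference in genes with an interior peak was gone, at -0.0109 on the log2 scale, and the interior shares differed by 1.23 percentage points with overlapping groups (exact permutation p = 0.667). When peaks had instead to stand 12.8-fold above their own library's genome-wide background, 6722 and 6080 genes had one in IAA, against 3797 and 2764 in Control. The local background under the peaks was 2.35 and 2.48 times the genome-wide one in IAA and 3.67 and 4.57 times in Control, and its part in the peak numbers was not tested.

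Summed over all tested genes, the length of gene interior under peaks was 21.5 and 21 Mb in IAA and 6.38 and 1.82 Mb in Control. The ratio of means was 5.18, or 3.33 without Control replicate 2. Peaks were narrower in IAA, with median widths of 326 and 370 bp against 452 and 435 bp in Control. Joining peaks closer than 5 kb left 50322 and 48127 domains in IAA and 25305 and 13035 in Control, a ratio of means of 2.57 where single peaks gave 3.59. Without Control replicate 2 these ratios were 1.95 and 2.53. With lists of equal length the log2 difference was 0.589 for the covered length, against 2.64 with all peaks, and 0.0305 for joined domains, against 1.44. Among the 2730 genes with an interior peak in all 4 libraries, the mean number of summits per gene was 7.54 and 6.7 in IAA and 2.5 and 1.31 in Control. On average, genes that already carried interior Ser2P in Control thus had more separate summits in both IAA libraries, 3.75-fold more, or 2.85-fold without Control replicate 2.

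Of the 18727 genes tested, 3699 were gained, which is 19.8% of all and 31% of the 11945 genes with no interior peak in either Control library. Only 29 genes, 0.155%, were lost. Without the condition on Control replicate 2, which can only add genes, 3780 or 20.2% were gained, and without that on Control replicate 1 there were 7090. A further 3391 genes had an interior peak in both IAA libraries and Control replicate 1 but not in Control replicate 2, and 81 genes in both IAA libraries and Control replicate 2 only. Of the gained genes, 2917 overlapped no other protein-coding gene. With the height minimum 2146 genes were gained, 1207 of them shared with the 3699, and with lists of equal length 331 were gained and 322 lost, 75 of the gained shared.

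A gained gene usually carried few summits. The median was 2 per gene in each IAA library, 32.6% and 37.4% of gained genes had 1, and 23.2% and 19.2% had at least 5. The genes with the most were long. CMIP, a 267 kb gene on chromosome 16 (chr16:81444808-81711762), had 70 and 58 interior summits in IAA replicates 1 and 2 and 0 in both Control libraries. They ran from 12.4 to 265 kb from its start in IAA replicate 1 and from 11.1 to 263 kb in IAA replicate 2, so they reached from just inside the gene almost to its end. A Ser2P peak at an end of CMIP was present in all 4 libraries.

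**Figure D1:**
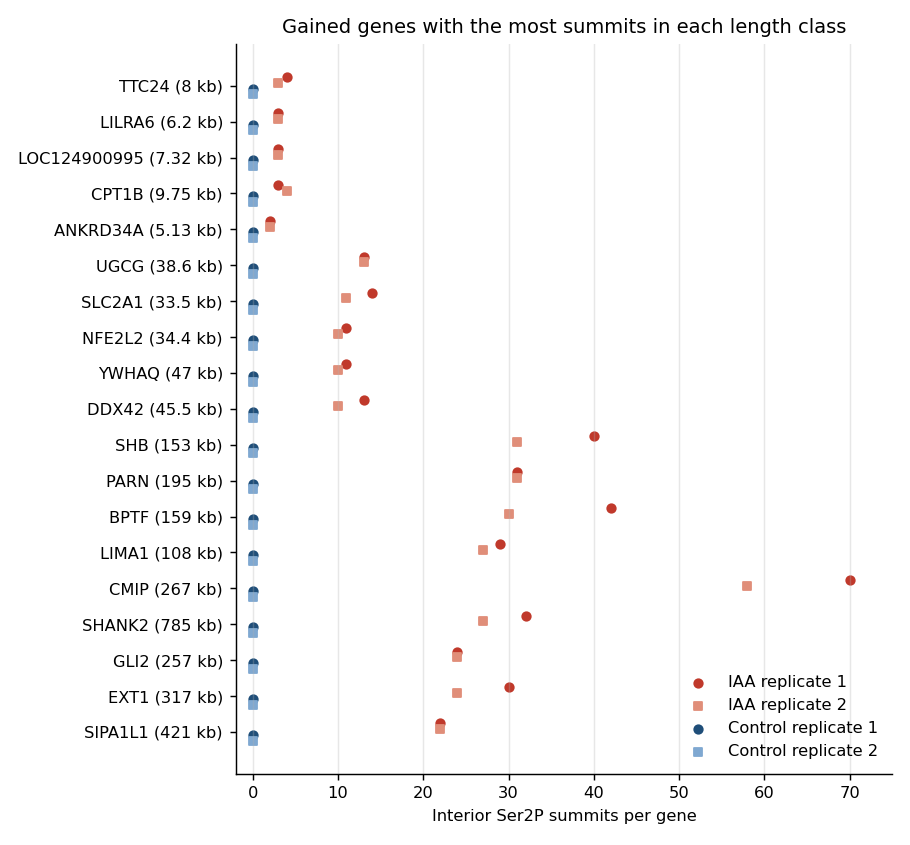
Interior Ser2P summits per gene on the horizontal axis for gained genes with the most summits, up to 5 in each of 4 length ranges, with 1 point per library. All IAA points lie at 2 or more summits, up to 70 in CMIP, and all Control points at 0, which the gained call fixes.

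The other gained genes over 200 kb with the most summits covered several roles. GLI2, a zinc finger transcription factor of Hedgehog signalling, had 24 and 24 summits in IAA. SHANK2, a scaffold of synapses also made in epithelia, had 32 and 27, and EXT1, which builds heparan sulfate chains, 30 and 24. SIPA1L1, a Rap GTPase regulator, had 22 in each. All had 0 in both Control libraries. GLI2 differed from the other 4 at its ends, where a Ser2P peak was present in both IAA libraries and in neither Control library.

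Between 50 and 200 kb the genes with the most summits included SHB, PARN, BPTF and LIMA1. SHB, an SH2-domain adaptor, is 153 kb long and had 40 and 31 interior summits in IAA. PARN, a poly(A)-specific ribonuclease, had 31 and 31, and BPTF, the largest subunit of the NURF remodeller, 42 and 30. LIMA1, an actin-binding protein, had 29 and 27. None had an interior summit in a Control library, while all 4 of these genes had a Ser2P peak at an end in all 4 libraries and a Pol II peak at an end in all 4 numbered Pol II libraries. Neighbouring summits were a median of 3.84 and 4.04 kb apart in SHB and 2.33 and 2.24 kb apart in LIMA1.

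Between 10 and 50 kb the summits were denser. UGCG, which makes glucosylceramide, had 13 and 13 summits in 38.6 kb in IAA. SLC2A1, the glucose transporter GLUT1, had 14 and 11 in 33.5 kb, the first 5.22 and 5.2 kb from its start and the last 31.8 kb from it in both. NFE2L2, the transcription factor of the oxidative stress response, had 11 and 10, as had YWHAQ, a 14-3-3 protein. DDX42, an RNA helicase, had 13 and 10. All 5 had 0 interior summits in both Control libraries and a Ser2P peak at an end in all 4 libraries. The Control peaks called at these genes thus lay within 1 kb of the start or the end.

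Under 10 kb, the 5 gained genes with the most summits held 2 to 4 in each IAA library. TTC24 had 4 and 3, CPT1B, the muscle form of carnitine palmitoyltransferase, 3 and 4, and ANKRD34A 2 and 2. LILRA6 and LOC124900995 had 3 and 3 each, and TTC24, LILRA6 and LOC124900995 had no Ser2P peak at an end in any library. LILRA6 belongs to a family of near-identical neighbours on chromosome 19, and reads of such copies cannot be placed with certainty, so its values are uncertain.

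The lost genes were few and short, and their calls rested on single peaks. Their median length was 8.61 kb, and 22 of the 29 had 1 interior summit in each Control library. At 24 of the 29 a Ser2P peak at a gene end was present in both IAA libraries. LONRF1, TMEM107 and TRIM47 were among the 6 with the highest-ranking Control peaks, as were WWC3, KLF10 and CYC1. TRIM47 had 0 and 0 interior summits in IAA and 1 and 2 in Control. CYC1, cytochrome c1 of the respiratory chain, and KLF10, a transcription factor induced by TGF-beta, had 0 and 0 interior summits in IAA and 1 and 1 in Control. WWC3 had 0 and 0 in IAA and 2 and 1 in Control. Without Control replicate 2 there were 263 lost genes, and without IAA replicate 1 there were 57.

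A few genes carried many summits in every library. DCBLD2, a membrane protein, had 21 and 23 interior summits in IAA and 39 and 9 in Control, so the groups overlapped. BCAR3, an adaptor in integrin and growth factor signalling, had 60 and 53 in IAA and 10 and 7 in Control. SYTL3, a synaptotagmin-like protein, had 41 and 36 in IAA and 14 and 6 in Control. In BCAR3 and SYTL3 both IAA libraries lay above both Control libraries, in DCBLD2 they did not. MLXIPL, a glucose-responsive transcription factor, had 8 and 6 in IAA and 6 and 5 in Control, with equal values in 1 library of each group.

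Among genes with no Control interior peak, longer genes were gained more often up to a length of 200 kb. The median length of gained genes was 34.8 kb, against 13.6 kb for genes with no Control interior peak that were not gained and 27.3 kb for all tested. Of genes with no Control interior peak, 5.55% were gained among those of 2 to 5 kb, 14.3% at 5 to 10 kb and 30.5% at 10 to 20 kb. The share was 44.8% at 20 to 50 kb, 46.5% at 50 to 100 kb and 47.9% at 100 to 200 kb, and it was lower again at 36.2% at 200 to 500 kb and 27.2% over 500 kb. As a share of all tested genes, which include those with Control peaks, gained genes were 5.07% at 2 to 5 kb, highest at 26% at 20 to 50 kb, and 18.5% over 500 kb. Longer genes have more room for a peak, so the density of summits was compared as well. In genes of 2 to 5 kb the density of interior summits was 2.42-fold higher in IAA than in Control, and 1.75-fold without Control replicate 2. In genes of 200 to 500 kb it was 10.2-fold higher, and 6.07-fold without Control replicate 2. The ratio was larger in each class than in the one before it up to 500 kb, except between 2 to 5 kb and 5 to 10 kb without Control replicate 2, where it was 1.75 and 1.74. In all 8 classes both IAA libraries lay above both Control libraries (exact permutation p = 0.333 for the percentage of genes with a peak, adjusted by Benjamini-Hochberg 0.333).

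**Figure D2:**
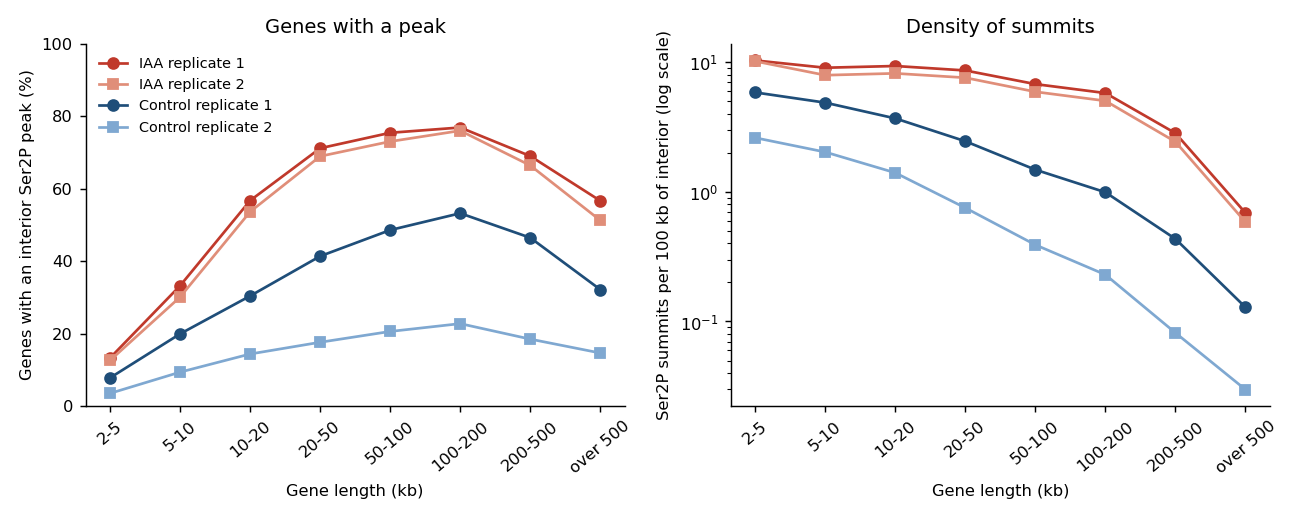
Left, the percentage of genes with an interior Ser2P peak, and right, interior summits per 100 kb on a log scale, by gene length in kb, with 1 line per library. The IAA lines lie above both Control lines in every length class, and the gap in density is wider in long genes.

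Along the gene, the excess of IAA summits was smallest next to the start. The interiors of 10237 genes of at least 5 kb with a known strand were divided into 10 bins of equal size, numbered from the start. The first bin held 2827 and 2440 summits in IAA and 1124 and 411 in Control, a ratio of means of 3.43, or 2.34 without Control replicate 2. The seventh bin held 3283 and 2920 in IAA and 549 and 110 in Control, a ratio of 9.41, or 5.65 without Control replicate 2. The last bin held 4386 and 3850 in IAA and 1039 and 262 in Control, a ratio of 6.33, or 3.96 without Control replicate 2. As shares, the first bin took 8.56% and 8.51% of IAA summits, against 16.5% and 23.7% of Control summits. The 5 bins nearer the end took 54.5% and 54.7% in IAA and 49.7% and 43.4% in Control (exact permutation p = 0.333). The difference over these 5 bins was 8.08 percentage points with all peaks, and with lists of equal length it was 1.04, with overlapping groups (exact permutation p = 0.667).

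Summits were also counted at fixed distances in 1859 genes of at least 40 kb with no other protein-coding gene within 20 kb. More than 5 kb inside both ends there were 8194 and 7079 summits in IAA and 1295 and 237 in Control, 9.97-fold apart and 5.9-fold without Control replicate 2. Within 1 kb of the start there were 1121 and 1104 in IAA and 1016 and 679 in Control, 1.31-fold apart and 1.09-fold without Control replicate 2. The start peak was thus nearly as frequent in the deep Control library as in the IAA libraries. Between 2 and 5 kb from the start few summits lay in any library, with 98 and 90 in IAA and 60 and 17 in Control. From 5 to 10 kb there were 381 and 313 in IAA and 74 and 28 in Control. In IAA this is a density of 1.69 summits per kb and 100 genes at 2 to 5 kb, against 3.73 at 5 to 10 kb and 43.5 in the first kb. In Control the same densities were 0.69, 0.549 and 31.4, so the dip at 2 to 5 kb was in the IAA mean and not in the Control mean.

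Just past the end of genes the groups were closer than inside them. From 1 to 5 kb past the end, where Ser2P is known to be high, there were 867 and 834 summits in IAA and 678 and 183 in Control. The ratio was 1.98, or 1.25 without Control replicate 2. From 5 to 20 kb past the end there were 918 and 813 in IAA and 335 and 66 in Control, a ratio of 4.32, or 2.58 without Control replicate 2. Summits also lay 5 to 20 kb before the start, with 701 and 618 in IAA and 125 and 30 in Control, a ratio of 8.51, or 5.28 without Control replicate 2. The higher summit number in IAA therefore extended outside protein-coding genes, with an upstream ratio of 8.51 beside 9.97 more than 5 kb inside both ends. Over 7473 genes with no next gene within 10 kb of the end, 43.9% and 42.7% had a summit 1 to 10 kb past it in IAA, against 30.5% and 12.1% in Control (exact permutation p = 0.333). Plus-strand genes lying inside a longer gene were not left out of the 7473, and for them this zone can lie within that gene. Cut to equal numbers of peaks, the lists gave a difference of -2.92 percentage points, the other way.

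**Figure D3:**
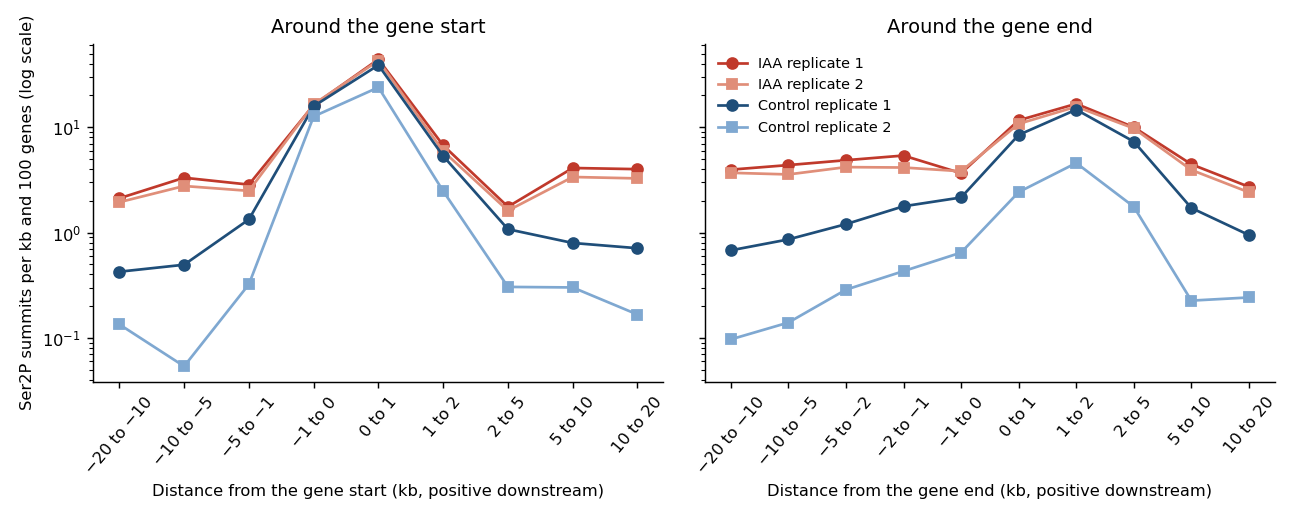
Ser2P summits per kb and 100 genes on a log scale against distance in kb from the gene start (left) and the gene end (right), in 1859 isolated genes of at least 40 kb, with 1 line per library. The 4 lines come closest at the start, and IAA replicates 1 and 2 separate from Control inside the gene and upstream of it.

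Gained genes were mostly genes that already had Ser2P at their start in Control. Among gained genes, 83.8% and 83.3% had a Ser2P summit within 1 kb of the start in IAA and 77.6% and 59.8% in Control. Among genes with no Control interior peak that were not gained, the same shares were 46.7% and 46.6% in IAA and 39.7% and 28.1% in Control. A summit 1 to 10 kb past the end was present in 66.3% and 64.5% of gained genes in IAA and 45% and 17.1% in Control. These Ser2P values come from the libraries that define the gained genes and are a description.

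Pol II and Tyr1P, the same domain phosphorylated at tyrosine 1, were measured in other libraries of the same cells. A Pol II peak at an end here lay within 1 kb of either the start or the end of the gene. Of gained genes, 68.6% had a Pol II peak at an end in all 4 numbered Pol II libraries, against 50.8% of all tested genes and 34.6% of those with no Control interior peak that were not gained. Among the 5391 genes with such Pol II peaks and no Control interior Ser2P, 47.1% were gained, against 12.7% of the 5249 genes with a Pol II end peak in none of the 4. The difference was present in every length class. At 100 to 200 kb, 73.5% of genes with Pol II at an end in all 4 libraries were gained and 17.9% of those with it in none, and at 2 to 5 kb 6.79% and 3.6%. Pol II in all 4 libraries thus went with a higher gained share, and the rise with length up to 200 kb was steeper in those genes.

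**Figure D4:**
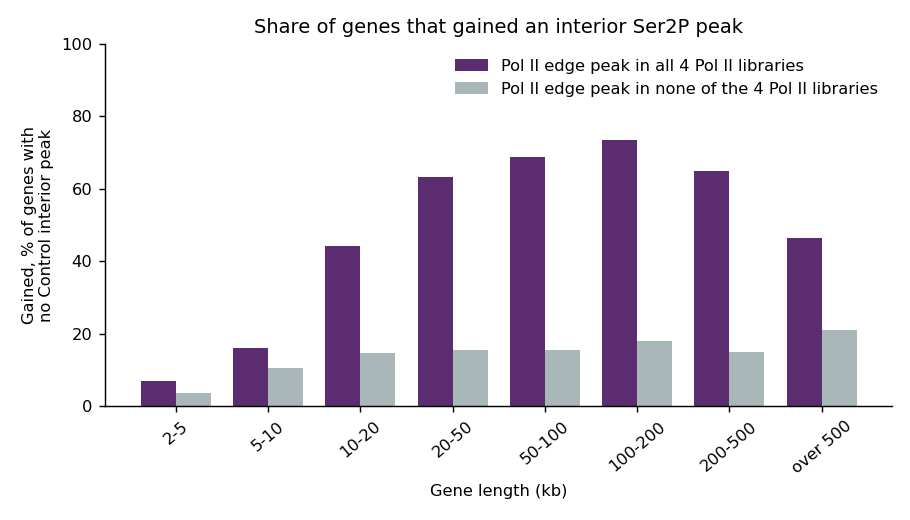
Percentage of genes with no Control interior Ser2P peak that were gained, by gene length in kb, for genes with a Pol II end peak in all 4 numbered Pol II libraries and in none. An end peak lies within 1 kb of either the gene start or the gene end. The bars for Pol II in all 4 are higher in each class, up to 73.5% at 100 to 200 kb.

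The mean share of gained genes with an interior peak of either antibody was lower with IAA. Tyr1P interior peaks were present at 23.1% and 21% of gained genes in IAA and 27.2% and 26.1% in Control, lower in both IAA libraries by a mean of 4.61 points (exact permutation p = 0.333). Pol II interior peaks were at 9.35% and 13.8% in IAA and 11.8% and 16.7% in Control, which overlap (exact permutation p = 0.667). Pol II peaks at a gene end were at 70.4% and 76.2% of gained genes in IAA and 79.3% and 80.4% in Control (exact permutation p = 0.333). Over all tested genes, Tyr1P interior peaks were in 29.6% and 27.4% in IAA and 33.1% and 33.3% in Control, so the lower share with IAA was seen over all genes too.

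Lists of genes that make and control the transcription machinery were gained at shares above those of all genes with no Control interior peak. Beside genes with Pol II at an end in all 4 libraries, their shares lay on both sides. Each count of members with no Control interior peak is read against 31% of all genes with no Control interior peak and 47.1% of those with Pol II at an end in all 4 libraries. At 20 to 50 kb these backgrounds were 44.8% and 63.3%, and at 10 to 20 kb 30.5% and 44.3%. Of Integrator subunits, 5 of the 9 with no Control interior peak were gained, all 9 of them with Pol II at an end and with a median length of 33.2 kb. INTS8 had 12 and 9 interior summits in IAA, INTS3 7 and 6, and INTS4 4 and 2, with 0 in both Control libraries. INTS11 itself, the target of the degron, had no interior peak in any library, and a Ser2P peak at an end in both IAA libraries and in neither Control library. Loss of INTS11 protein was not measured by these libraries.

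Of Pol II elongation factors 10 of 18 were gained, with 8 of 14 among those with Pol II at an end. LEO1 of the PAF complex had 8 and 4 summits in IAA, and ELL2 of the super elongation complex 4 and 5, with 0 in both Control libraries. CDK9, the kinase that releases paused polymerase, had no interior peak in any library. It is 4.76 kb long, and 1545 of the 1913 tested genes of 2 to 5 kb had none either. Of C-terminal domain kinases and phosphatases 6 of 8 were gained, among them MNAT1, an assembly factor of the CDK7 kinase, with 13 and 8, and PPP2R1A, the PP2A scaffold, with 6 and 5. CDK12 and CDK13 were not counted as gained, with 14 and 12 and with 26 and 22 summits in IAA against 3 and 0 in Control for each. Of cleavage and termination factors 9 of 15 were gained, among them CPSF3, the nuclease of polyadenylation, with 5 and 5. Of Pol II subunits and general factors 7 of 13 were gained, with 7 of 12 among those with Pol II at an end. POLR2A, the subunit that carries the C-terminal domain, had 7 and 6 summits in IAA and 0 and 0 in Control, the first of them 12.3 and 12.4 kb from its start in IAA replicates 1 and 2. Mediator and splicing factors each had 8 gained of 19, with 7 of 18 among those with Pol II at an end and median lengths of 17.4 and 16 kb.

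Nuclear pore genes had the highest share of the lists. Of nuclear pore and transport genes with no Control interior peak, 15 of 16 were gained, with a median length of 68.3 kb. XPO6, an export receptor for actin, had 25 and 19 summits in IAA, and NUP155 12 and 17. Of histone lysine methyltransferases and demethylases 8 of 9 were gained, among them NSD2 with 13 and 12. Of chromatin remodellers 7 of 8 were gained, with BPTF leading, and of ubiquitin ligases 7 of 8, among them HERC2 with 18 and 17. DNA repair had 12 of 15, with MSH3 at 11 and 16, and actin and adhesion genes 8 of 11. MAPK and receptor kinases had 12 of 17. In these 7 lists the median length of members with no Control interior peak lay between 51.3 and 173 kb, where 46.5% to 47.9% of all genes with no Control interior peak were gained and 68.8% to 73.5% of those with Pol II at an end in all 4 libraries.

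Housekeeping lists spread widely. Cytosolic ribosomal proteins had 16 of 48 gained, or 33.3%, at a median length of 4.49 kb. RPL35A and RPL37 had 3 and 3 and 3 and 2 summits in IAA and 0 in Control. That share lies near 31% over all lengths, beside 5.55% of all genes of 2 to 5 kb and 14.3% of those of 5 to 10 kb. With Pol II at an end in all 4 libraries it was 16 of 44, beside 6.79% at 2 to 5 kb and 16.1% at 5 to 10 kb. The gained members were 3.28 to 14.6 kb long, so no single length class fits them all. Mitochondrial complex I had 3 of 23, or 13%, at a median length of 6.2 kb, where 14.3% of all genes of 5 to 10 kb were gained. The 3 were NDUFB6 with 2 and 2 summits in IAA, NDUFB10 with 1 and 1, and NDUFS6 with 2 and 1. Translation factors had 11 of 21 gained, the proteasome 10 of 16 and chaperones 10 of 18, or 52.4%, 62.5% and 55.6%. Their median lengths were 17.3, 12.5 and 15.6 kb. At 10 to 20 kb, 30.5% of all genes with no Control interior peak were gained, and 44.3% of those with Pol II at an end in all 4 libraries. Among members with such Pol II peaks the counts were 10 of 18, 10 of 16 and 10 of 17. Cholesterol synthesis had 5 of 15, or 33.3%, at a median length of 22.1 kb, beside 44.8% at 20 to 50 kb. With Pol II at an end in all 4 libraries it was 4 of 12, beside 63.3%. DNA replication had 11 of 20 and mitosis and spindle 14 of 24, among them KIF11, a spindle motor, with 8 and 5. These shares were 55% and 58.3%, at median lengths of 21.8 and 31.6 kb, also beside 44.8%, or 63.3% with Pol II at an end in all 4 libraries. Among members with such Pol II peaks the counts were 11 of 20 and 11 of 18. The proteasome gene PSMB4 was lost, with 0 and 0 interior summits in IAA and 1 and 1 in Control.

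Signalling lists were mixed. Of Wnt genes 10 of 22 were gained, or 45.5%, at a median length of 25.7 kb. At 20 to 50 kb, 44.8% of all genes with no Control interior peak were gained. With Pol II at an end in all 4 libraries it was 8 of 17 Wnt genes, beside 63.3% at 20 to 50 kb. Among the Wnt genes were TNIK, a kinase of the pathway, with 12 and 11 summits in IAA, and AXIN1, a scaffold of beta-catenin destruction, with 4 and 3. Immediate early genes, which are short and respond to growth signals, had 6 of 22, or 27.3%, at a median length of 3.97 kb. At 2 to 5 kb, 5.55% of all genes with no Control interior peak were gained. With Pol II at an end in all 4 libraries it was 5 of 20 members, beside 6.79% at 2 to 5 kb. Members of this list differ in length, so the background at the median length need not fit its gained members. FOSL2 had 7 and 6 summits in IAA, SRF 4 and 2 and JUN 2 and 2. This list also held 2 of the 29 lost genes, KLF10 and GADD45A, each with 1 and 1 in Control. Colon epithelium markers had 0 of 8, at a median length of 8.88 kb, beside 14.3% of all such genes of 5 to 10 kb. Neuron genes had 2 of 13, at a median length of 1114 kb, beside 27.2% over 500 kb. Blood cell genes had 2 of 11, and fibroblast, muscle and liver genes 2 of 9. Their median lengths were 23.7 and 27.2 kb, beside 44.8% at 20 to 50 kb. Pol II lay at an end in all 4 libraries at 2 of the 8 colon, 3 of the 13 neuron, 1 of the 11 blood and 0 of the 9 other genes. Among the genes of these lists, CNTNAP2 and CD8A had 1 and 1 summit each in IAA, the first a neuronal adhesion gene and the second a T cell coreceptor gene. ZNF genes, which encode zinc finger proteins and were grouped by symbol after the data were seen, had 87 of 340 gained. This is 25.6%, at a median length of 22.9 kb, beside 44.8% at 20 to 50 kb. With Pol II at an end in all 4 libraries it was 70 of 168, beside 63.3%. Olfactory receptors had 3 of 199, or 1.51%, at a median length of 8.47 kb, beside 14.3% at 5 to 10 kb. Only 1 of these 199 had Pol II at an end in all 4 libraries.

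**Figure D5:**
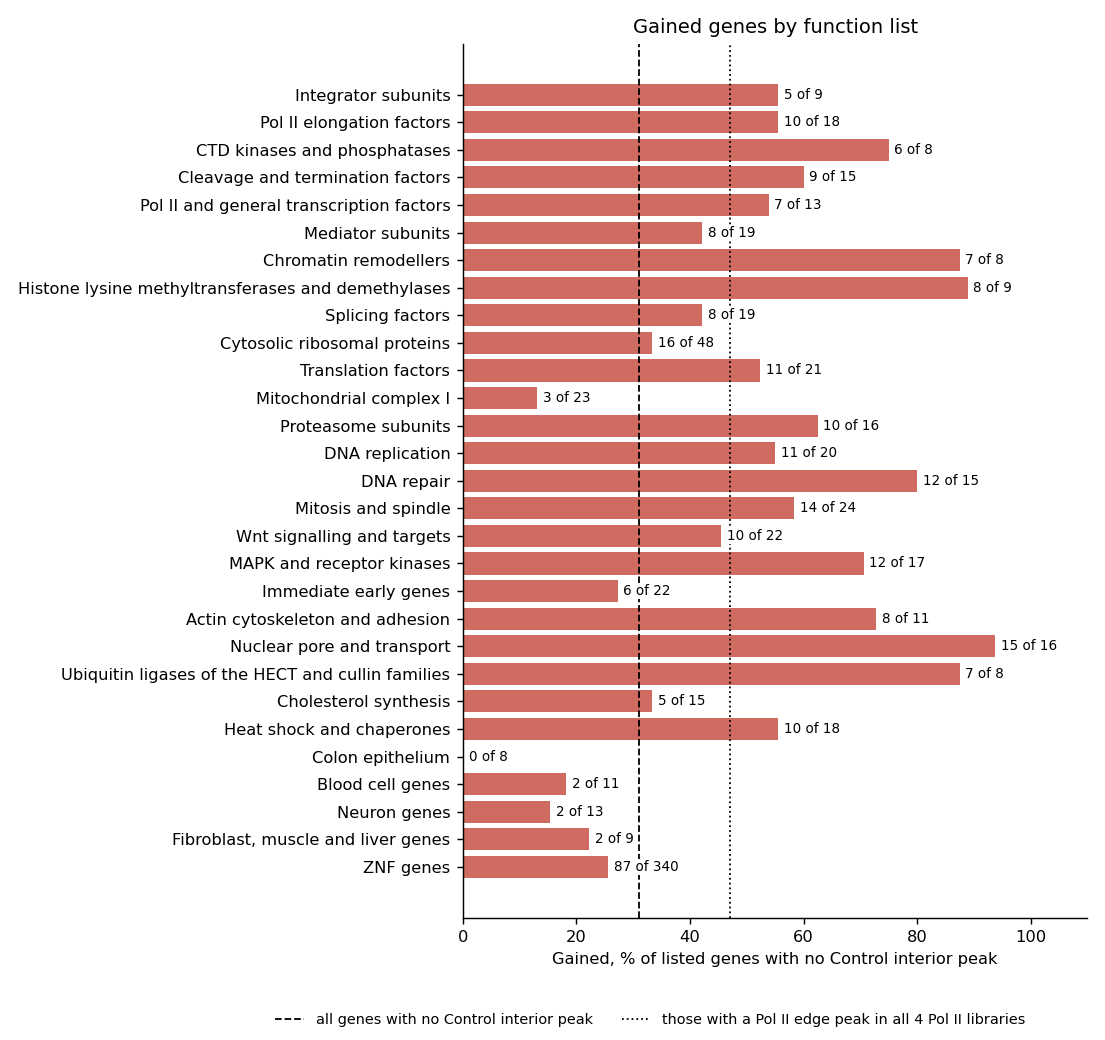
Gained genes as a percentage of the listed genes with no Control interior Ser2P peak, by function list, with counts beside the bars. The dashed line is the share over all such genes, 31%. The dotted line is that over those with a Pol II peak within 1 kb of the gene start or end in all 4 Pol II libraries, 47.1%. Nuclear pore genes are highest with 15 of 16 and colon epithelium markers lowest with 0 of 8.

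Chromosomes differed in their share. Gained genes were 29.2% of the tested genes of chromosome 22 and 10.5% of those of chromosome X, with the other chromosomes between 14.7% and 25.4%. On chromosome X an interior peak was present in 31.4% and 28.2% of genes in IAA and 18.3% and 7.01% in Control, and on chromosome 22 in 69.1% and 65.7% in IAA and 35% and 15.3% in Control. Both chromosomes thus had both IAA libraries above both Control libraries. Chromosome X had the lowest share of genes with an interior peak in each of the 4 libraries, Control included. Chromosome copy number was not examined.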

How the data were processed

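ChIP-seq peak lists of 4 Ser2P libraries were analysed, with numbered Pol II and Tyr1P libraries and 2 inputs beside them. The submitters' processing notes name MACS2 2.2.7.1, Bowtie2 2.3.4.1, Trim Galore 0.6.6, deepTools 3.5.1, Picard 2.25.7 and the build hg38, without their options. The authors called peaks for each library separately and deposited 1 list for each. The deposited score, fold enrichment at the summit, and −log10 p and −log10 q describe each peak within its own list, and only the estimates below were compared between libraries.

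Only chromosomes 1 to 22 and X were used. Any peak that overlapped an input peak by 1 bp or more was dropped, 0.276% to 0.78% of a list. The lists hold no read totals, so fragments and local background at each summit were solved from the deposited fold and −log10 p, taking the p as a Poisson tail. This fitted 100% of peaks within a relative tolerance of 0.0002, and the lowest shared background gave fragments per kb. Genes came from RefSeq on GRCh38.p14, with strand from its promoter table for 15812 of 19974 protein-coding genes. None of the genes of chromosome 8 has a strand there, so they are absent from the position results. All 889 list entries matched a gene.

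Group differences were tested by exact permutation of the libraries, two-sided. Presence of a peak depends on depth and on the background, so the alternatives leave out each library, cut lists to equal length, or set a minimum fold, −log10 q or height. Named genes overlap no other protein-coding gene and are, for gained genes, the 5 with the most summits in the lower IAA library in each of 4 length ranges, for lost genes the 6 with the highest-ranking Control peaks, for genes with peaks in all 4 libraries the 6 with the most summits in the lowest library, and from each function list up to 4 gained members and all lost ones. CDK9, CDK12, CDK13 and the 2 chromosomes with the highest and lowest share were named after their values were seen. The members, lists and tests were chosen with earlier results of these data known. The scripts were tested on simulated data. Python 3.11.15 with numpy 2.4.6, pandas 2.3.3, scipy 1.17.1 and matplotlib 3.10.9 was used. Results for 2 of the genes these rules name are not reported here.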

Additional observations from a re-analysis of the deposited data

Results flagged for a closer look

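The IAA minus Control difference was positive for Ser2P and negative for Tyr1P. The percentage of tested genes with an interior peak differed by 31.8 points for Ser2P, with 58.5% and 56.2% in IAA and 35.6% and 15.5% in Control. For Tyr1P it differed by -4.75 points, with 29.6% and 27.4% in IAA and 33.1% and 33.3% in Control. The gap between the 2 differences was 36.6 points (exact permutation of the treatment labels within each antibody, two-sided p = 0.0556 over 36 arrangements, the smallest they can give). Without Ser2P Control replicate 2 the Ser2P difference was 21.8 points and the gap 26.5 points. With Ser2P lists of equal length the Ser2P difference in genes with an interior peak was gone, at -0.0109 on the log2 scale. Tyr1P lists were not cut in this way, so the gap was not tested with lists of equal length. With all peaks, both IAA libraries lay above both Control libraries for Ser2P and below them for Tyr1P. Pol II interior peaks differed by -4.23 points, with 15.9% and 20.47% of tested genes in IAA and 20.49% and 24.4% in Control. Depth was estimated only for the Ser2P lists, so the part of depth in the Tyr1P and Pol II differences was not tested.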

How the results depend on the processing

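Of 113 alternative values, 103 kept their direction or stayed within 1.5 times a count, 8 counts moved further and 2 differences turned. The 103 include the values with the replicate number as a block, which equal the main ones by construction and could not turn. Differences with 1 library left out could not turn either, because the groups did not overlap in any of them. Several that kept their direction were much smaller with lists of equal length. With lists of equal length (15270 peaks) the log2 difference in genes with an interior peak was -0.0109 and the difference past gene ends -2.92 points, with 331 genes gained and 322 lost. The interior share then differed by 1.23 points, against 28, the end share by 1.04 points, against 8.08, the covered length by 0.589 on the log2 scale, against 2.64, and joined domains by 0.0305, against 1.44. The number of peaks has no value under that setting, which fixes it. With the height minimum, added after seeing the data, 2146 genes were gained and 71 lost. With the interior beginning 2 kb inside, 17 were lost. Leaving out 1 library gave 3780 to 7090 gained and 38 to 263 lost genes. Same-numbered libraries deviated together with a correlation of 0.0574 in 2 pairs. With 2 libraries per group the deviations within a group mirror each other, so this value cannot decide whether the numbers pair them. The labels give no pairing, and the main comparisons used none. With the replicate number as a block the difference in peak number is by construction the same 1.98 on the log2 scale (exact sign-flip p = 0.5, the smallest pairs allow). The cause of the moves was not tested. The depth of Control replicate 2, 3.28 fragments per kb, limits what its missing peaks show.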
